A study of Mus musculus with 6 samples.

Results

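The cell cycle and DNA replication genes analyzed here are 49 genes chosen by function, among 29374 genes with any estimated read in the series and 16656 with enough reads to be tested. All 49 passed the filter on low counts and were tested. They were divided by role into 16 replication genes, 20 mitosis genes and 13 regulators of both steps. Their RNA was measured in CD11b+Gr1+ splenocytes, a myeloid fraction that was purified by flow cytometry and holds the leukemic blasts of mice with the Mll-AF9 fusion oncogene. Every mouse carried the Mll-AF9 knockin allele. One group of 3 libraries was Rpl22+/+ and the other group of 3 was Rpl22-/-, a germline loss of both alleles of Rpl22, whose product is part of the large subunit of the ribosome. The labels give neither the age of the mice nor the number of animals behind the 3 libraries of each genotype, and the study names a single mouse identifier for the leukemias of each genotype, so that all p-values measure the spread between libraries only.

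Before a cell divides it copies its genome once and then separates the copies. In G1 the origin recognition complex, Cdc6 and Cdt1 load the ring-shaped Mcm2-7 helicase onto replication origins, Cdc45 and the GINS complex later activate it, and DNA polymerases copy the strands with the Pcna clamp. Genes for these steps are classical targets of E2F transcription factors and peak near the start of S phase. Genes for spindle assembly, chromosome attachment and cytokinesis peak later, in G2 and mitosis, under Foxm1, Mybl2 and the DREAM complex. In acute myeloid leukemia, a cancer of immature myeloid cells, both programs are transcribed in the dividing blasts and are low in mature granulocytes. In bulk RNA, fewer cycling cells and less RNA per cell cannot be told apart.

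The libraries held between 35828500 and 102866127 estimated reads. Rpl22 RNA, the targeted gene, was measured at 148, 235 and 152 CPM in Rpl22+/+ replicates 1 to 3 and 58.3, 89.9 and 73.5 CPM in Rpl22-/- replicates 1 to 3, a log2 fold change of -1.27 ± 0.25 (SE, edgeR quasi-likelihood test, adjusted p = 0.0106). All Rpl22-/- libraries lay below all Rpl22+/+ libraries, and reads remained in each of them. CPM are reads scaled to a common library total by the TMM method, and they serve to compare libraries for 1 gene. Among the surface markers of the sorted fraction, Itgam (CD11b) was present in every library, with a log2 fold change of -1.02 ± 0.16 (edgeR adjusted p = 0.00482), and Ly6g, one of the proteins that the Gr1 antibody binds, changed by -3.49 ± 0.20 (edgeR adjusted p = 9.70e-05). Ly6c2, whose product is also bound by that antibody, had 0.51 ± 0.25 (edgeR adjusted p = 0.18, and 0.0292 without Rpl22+/+ replicate 2). Of the 6 genes listed for the fraction, Itgam, Ly6g and Cd33 were lower and passed, while Ly6c1, Ly6c2 and Csf3r had changes above 0 that did not pass with all libraries.

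Few of the 49 genes passed the test when all 6 libraries were compared. Wee1 was higher in Rpl22-/-, and Ccna2 and E2f2 were lower, at a Benjamini-Hochberg adjusted p under 0.05 by the quasi-likelihood test of edgeR. That is 1 of 49 genes higher (2.04%) against 13.7% of all tested genes, and 2 of 49 lower (4.08%) against 13.8% of all tested genes. At an unadjusted p under 0.05 there were 10 of the 49, while 13.7% and 13.8% of all genes passed the stricter adjusted threshold, higher and lower. None of the 49 passed the adjusted threshold with a change of over 2-fold as well (0 higher and 0 lower), a rule met by 8.93% of all genes in the higher and 8.54% in the lower direction. By that rule, DESeq2 called 1 member, Ccne2, higher and 0 lower, against 8.84% and 9.13% of all genes, and limma on log2(TPM + 1) called 0, against 5.44% and 4.2%. The groups did not overlap, with every Rpl22-/- library above every Rpl22+/+ library, for 8 members (16.3%) against 23.9% of all genes, and every one below for 6 members (12.2%) against 22.2%. The median log2 fold change was 0.05 over the members and 0.07 over all tested genes, and 48 of the 49 changes were under 2-fold.

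Without Rpl22+/+ replicate 2, a library in which 10 members lay far below the other Rpl22+/+ libraries, 13 members were higher in Rpl22-/- (26.5%, against 20.7% of the 17127 genes tested) and 3 were lower (6.12%, against 19.3%). The 3 genes called with all libraries were among these 16. Of the 13 genes, 8 were replication genes, 2 were mitosis genes and 3 were regulators. The 3 lower genes were all regulators. The direction of the change was the same in both comparisons for 45 of the 49 genes, and Mcm7, Pola1, Aurka and Bub1 changed sign.

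**Figure D1:**
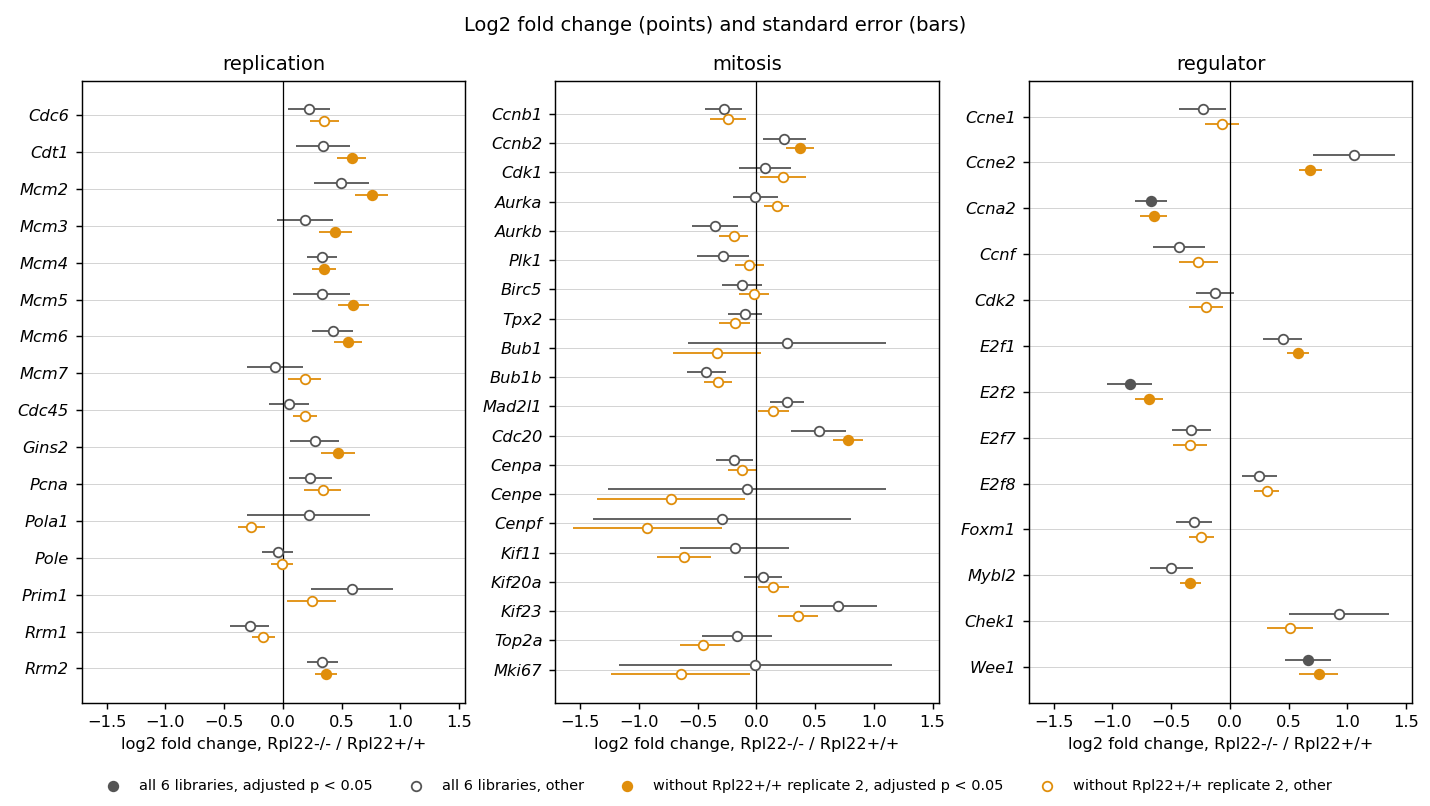
Log2 fold change of each gene, Rpl22-/- over Rpl22+/+, in 3 panels by role (horizontal axis, log2 units; bars, standard error from edgeR), with all 6 libraries in gray and without Rpl22+/+ replicate 2 in orange. Filled points passed an adjusted p of 0.05. In the replication panel 8 orange points and 0 gray points are filled, and the widest bars belong to Cenpe, Cenpf, Mki67 and Bub1.

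Markers of maturation and of other cells moved with genotype beside the members. The summed level of 5 primary granule genes, which mark promyelocytes, was 2389 to 4095 CPM in Rpl22+/+ and 22478 to 27374 in Rpl22-/-, and all 5 were called higher. The 6 secondary granule genes of later granulocytes summed to 41839 to 57082 CPM in Rpl22+/+ and 11555 to 15839 in Rpl22-/-, and all 6 were called lower. The 5 T cell markers summed to 30.2 to 38.5 CPM in Rpl22+/+ and 9.52 to 11.3 in Rpl22-/-, all 5 lower. The 5 B cell markers, from a lineage that can also divide, summed to 567 to 721 CPM in Rpl22+/+ and 359 to 550 in Rpl22-/-, with 1 of 5 called, lower. Of 8 erythroid genes 7 were higher, summing to 88.4 to 134 CPM in Rpl22+/+ and 616 to 1190.0 in Rpl22-/-, while Klf1, the defining erythroid factor, did not exceed 1.26 CPM in any library, on a sum of transcripts that reached 0.467 of the mean the authors deposited for it. The 5 megakaryocyte genes summed to at most 5.13 CPM and the 5 stroma genes to at most 6.28 CPM, with Pf4, Ppbp, Col1a2 and Col3a1 at or near 0. Of these, 0 megakaryocyte genes and 1 stroma gene, Pdgfrb, were called. Pdgfrb was lower, at 1.04, 1.40 and 1.07 CPM in Rpl22+/+ replicates 1 to 3 and 0 in each Rpl22-/- library. Its sum of transcripts reached 0.392 of the mean the authors deposited. The part of these cells in the levels of the members was not tested.

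Rpl22+/+ replicate 2 stood apart in the 3 longest members and in some other members of low GC content. In Rpl22+/+ replicate 2, 10 of the 49 members lay over 1 log2 unit below the mean of Rpl22+/+ replicates 1 and 3, whereas 35 members lay above it. The 10 were Pola1, Prim1, Bub1, Cenpe, Cenpf, Kif11, Kif23, Mki67, Ccne2 and Chek1, and all 10 had a GC content under the median of the members, 49.4%. Of the 10, 6 were longer than the median length of 2832 bases. Across the 49 members the deviation of this library had a Spearman correlation of 0.82 with GC content and of -0.42 with length (Pearson 0.59 and -0.62), given as a description of genes that share the libraries. Over all 13199 genes averaging 50 counts or more, these Spearman correlations were 0.64 and -0.35. The median deviation was 0.25 log2 units over those genes and 0.38 over the members. By length, the median deviation was 0.15 log2 units over the 16 longest members, 0.47 over the 17 of middle length and 0.49 over the 16 shortest. All genes averaging 50 counts or more in these length ranges had medians of 0.01, 0.24 and 0.41. Pole, the fourth longest member, stood at 0.23. Mki67, the gene of the proliferation antigen Ki-67 and 1 of the 3 longest members, was measured at 818, 17.3 and 669 CPM in Rpl22+/+ replicates 1 to 3 and 936, 173 and 388 CPM in Rpl22-/- replicates 1 to 3. Rpl22+/+ replicate 2 was far below every other library, and the 3 Rpl22-/- libraries also spread widely, with replicate 2 lowest. Cenpe and Cenpf, kinetochore proteins of similarly long transcripts that were singled out after their values were seen, were lowest in the same libraries. Cenpe was at 90.4, 1.67 and 63.2 CPM in Rpl22+/+ replicates 1 to 3 and 94.5, 16.03 and 36.5 CPM in Rpl22-/- replicates 1 to 3. Cenpf was at 75.5, 2.46 and 53.6 CPM in Rpl22+/+ replicates 1 to 3 and 72.3, 13.2 and 22.1 CPM in Rpl22-/- replicates 1 to 3.

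Low levels of Mki67, Cenpe and Cenpf were not limited to 1 library. Across the 49 members, the deviation of Rpl22+/+ replicate 2 from its group and the difference between Rpl22-/- replicates 2 and 1 had a Pearson correlation of 0.95 (Spearman 0.82), given as a description of genes that share these libraries. Over the 16 longest members, the median difference between Rpl22-/- replicates 2 and 1 was -0.25 log2 units, against 0.02 over the 16 shortest. In the same length ranges, all genes averaging 50 counts or more had medians of -0.12 and 0.15. For Rpl22-/- replicate 3 against replicate 1 the medians of the longest and shortest members were -0.28 and -0.25. The 17 members of middle length had -0.05, and all genes of the long and short ranges had -0.10 and 0.03. The lowest member in that difference, Cenpf, was at -1.71. The Pearson correlation of this difference with log10 length was -0.56 (Spearman -0.26). A comparison that leaves out Rpl22+/+ replicate 2 alone thus sets 2 Rpl22+/+ libraries against Rpl22-/- libraries of which replicates 2 and 3 had lower Mki67, Cenpe and Cenpf than replicate 1. With both libraries numbered 2 left out, an alternative chosen after seeing the data, 13 members were higher (26.5%, against 20.6% of all genes) and 4 lower (8.16%, against 20.9%), and 14 of the 16 members that had passed without Rpl22+/+ replicate 2 passed again.

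**Figure D2:**
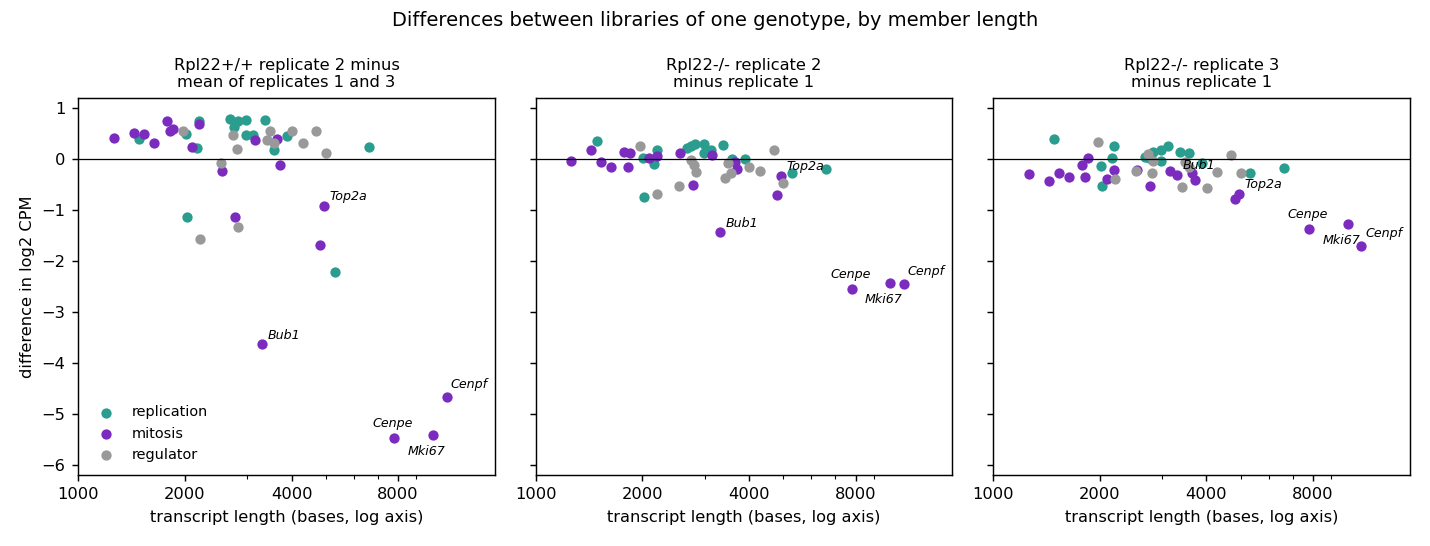
Difference in log2 CPM between libraries of 1 genotype (vertical axis) against transcript length in bases (horizontal log axis) for the 49 members, colored by role. Mki67, Cenpe and Cenpf lie lowest in all 3 panels, at under -4 log2 units in Rpl22+/+ replicate 2, and Bub1 is low in the first and second panels.

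The replication genes were higher in Rpl22-/- by value, although none of the 16 passed the edgeR test with all 6 libraries (0 higher and 0 lower, against 13.7% and 13.8% of all genes, with 3 at an unadjusted p under 0.05). DESeq2 also called 0 (against 14.9% of all genes higher and 16.6% lower), whereas limma on log2(TPM + 1) called 8 of the 16 higher and 0 lower (against 19.3% and 12.8% of all genes). Of these genes, 13 had a log2 fold change above 0, with a median of 0.25, and 3 below, whereas over all tested genes the median was 0.07. Without Rpl22+/+ replicate 2 the median was 0.35 (0.04 over all genes), and 8 of 16 genes (50%, against 20.7% of all genes) were called higher and 0 lower (against 19.3%). The TPM of the 16 genes, which are scaled for transcript length and can be added, summed to 1028, 1086 and 1017 in Rpl22+/+ replicates 1 to 3 and to 1353, 1300 and 1370 in Rpl22-/- replicates 1 to 3 (means 1044 ± 37.0 and 1341 ± 36.5, SD, n = 3 each, a ratio of 1.28). The groups did not overlap in this sum. TPM carry no composition factor, and on a log2(TPM + 1) scale the median of all genes was itself shifted by 0.10. On TMM-scaled CPM the median of the class, centered on each gene's mean over the libraries, was -0.27, 0.22 and -0.23 in Rpl22+/+ and 0.09, 0.15 and 0.16 in Rpl22-/-, so that Rpl22+/+ replicate 2 exceeded all Rpl22-/- libraries on that scale.

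**Figure D3:**
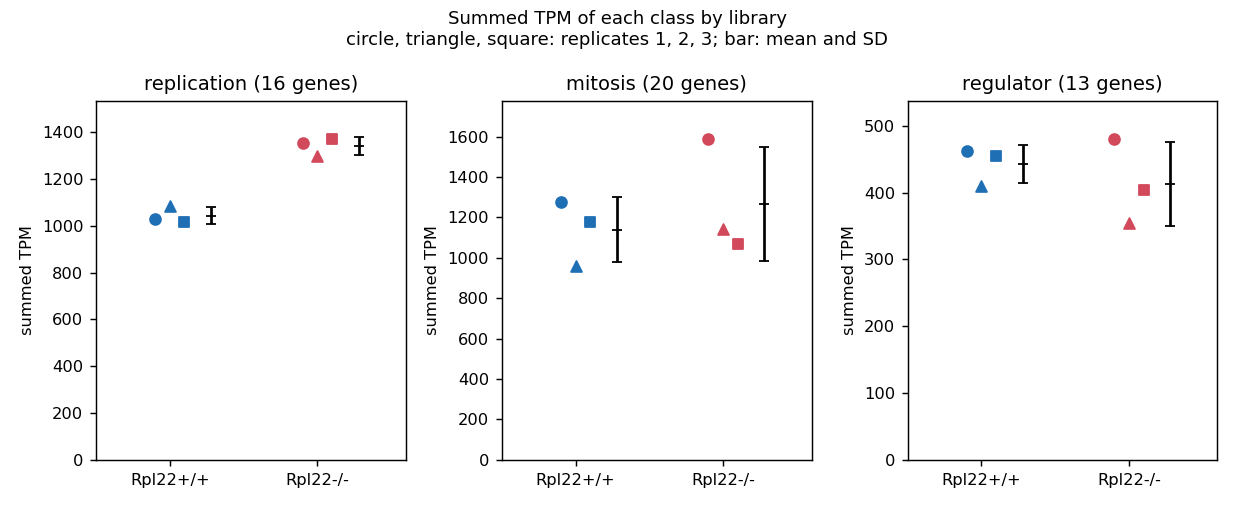
Summed TPM of the replication, mitosis and regulator genes in each library (vertical axes from 0; circle, triangle and square for replicates 1, 2 and 3; bars, mean and SD). The 3 Rpl22-/- libraries sit above the 3 Rpl22+/+ libraries for the replication genes, at 1300 to 1370 against 1017 to 1086, and the genotypes overlap for the other 2 classes.

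The promoters of these genes carry known sequence signatures of the programs, and 3 windows of each class are shown to let these signatures be seen in context. The windows are those of the members with the smallest p that hold the motif of their class, so the motif is present in each by choice, and members with smaller p but no class motif (Mcm2, Bub1b, Kif23 and Mad2l1) were passed over. Mcm4 and Aurkb, whose p would also have placed them ahead of members shown, had no window and could not be searched. RefSeq windows (GRCm38.p6) were found for 39 of the 49 members, and the 250 bases before the start site were searched on both strands. For E2F the word TTGGCGC was searched, followed by the variant TTCCCGC, the variant of the form TTCGCGC and lastly the variant with TTGCCGC. For the cell cycle homology region (CHR) the word TTTGAA was searched, together with the palindromic variant TTTAAA, and the CCAAT box was searched by its own letters. E2F words can overlap on opposite strands. An E2F word occurred in 8 of the 13 replication genes with a window (61.5%), 3 of 17 mitosis genes (17.6%) and 9.01% of all 27025 genes with a window. A CHR word occurred in 11 of 17 mitosis genes (64.7%), 3 of 13 replication genes (23.1%) and 28.1% of all genes. CCAAT occurred in 11 of 13 replication genes (84.6%), 15 of 17 mitosis genes (88.2%) and 37.5% of all genes. A match is a description of the sequence and not a bound site. For the 3 replication genes, Rrm2 (chr12:24708004-24708253, plus strand), Mcm6 (chr1:128359706-128359955, minus strand) and Rrm1 (chr7:102441445-102441694, plus strand), capitals mark E2F and CCAAT words, and each sequence ends at the base before the start site.
Rrm2: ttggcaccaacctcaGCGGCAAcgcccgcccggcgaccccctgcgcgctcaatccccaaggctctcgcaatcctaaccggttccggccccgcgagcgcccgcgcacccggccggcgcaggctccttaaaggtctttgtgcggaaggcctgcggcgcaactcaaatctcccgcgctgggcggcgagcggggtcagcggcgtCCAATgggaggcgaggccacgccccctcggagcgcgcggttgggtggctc
Mcm6: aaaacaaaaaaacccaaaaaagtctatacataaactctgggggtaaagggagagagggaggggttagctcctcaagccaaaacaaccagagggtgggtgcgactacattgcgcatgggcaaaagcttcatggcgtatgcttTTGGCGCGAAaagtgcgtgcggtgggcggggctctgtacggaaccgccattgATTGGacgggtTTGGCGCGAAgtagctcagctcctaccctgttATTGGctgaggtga
Rrm1: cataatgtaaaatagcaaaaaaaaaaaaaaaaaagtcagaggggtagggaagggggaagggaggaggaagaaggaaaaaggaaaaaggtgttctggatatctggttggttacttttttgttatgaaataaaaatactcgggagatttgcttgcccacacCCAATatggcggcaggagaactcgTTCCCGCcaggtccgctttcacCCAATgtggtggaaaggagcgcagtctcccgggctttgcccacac
For the 3 mitosis genes, Cdc20 (chr4:118437344-118437593, minus strand), Ccnb1 (chr13:100786487-100786736, minus strand) and Ccnb2 (chr9:70421555-70421804, minus strand), capitals mark CHR and CCAAT words, and the E2F word in Ccnb1, which overlaps its first CCAAT box, is not marked on its own.
Cdc20: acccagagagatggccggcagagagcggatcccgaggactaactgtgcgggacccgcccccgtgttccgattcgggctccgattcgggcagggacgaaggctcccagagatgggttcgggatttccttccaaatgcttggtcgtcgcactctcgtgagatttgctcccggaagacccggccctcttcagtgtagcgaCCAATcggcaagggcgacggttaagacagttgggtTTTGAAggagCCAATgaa
Ccnb1: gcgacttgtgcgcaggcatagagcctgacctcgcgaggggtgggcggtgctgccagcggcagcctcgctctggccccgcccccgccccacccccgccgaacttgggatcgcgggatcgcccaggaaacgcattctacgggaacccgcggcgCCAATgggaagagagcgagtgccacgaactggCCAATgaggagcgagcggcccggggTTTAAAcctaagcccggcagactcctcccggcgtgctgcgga
Ccnb2: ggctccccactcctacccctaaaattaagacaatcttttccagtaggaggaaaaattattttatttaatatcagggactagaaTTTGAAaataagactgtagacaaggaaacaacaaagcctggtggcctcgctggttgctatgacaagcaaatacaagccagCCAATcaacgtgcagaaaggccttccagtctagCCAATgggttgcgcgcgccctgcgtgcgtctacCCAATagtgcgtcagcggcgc
Mcm6 held 4 E2F words in 2 overlapping pairs, and each of the mitosis windows shown held more than 1 CCAAT box. These words were not used to choose the members, although genes of both classes are known for them.

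Origin licensing held 6 of the 8 replication genes called higher without Rpl22+/+ replicate 2. Of its 8 members, Cdc6, Cdt1 and Mcm2 to Mcm7, 0 passed with all 6 libraries by edgeR or DESeq2 (2 at an unadjusted p under 0.05, and 5 called higher by limma on log2(TPM + 1), against 19.3% of all genes), and 6 passed without Rpl22+/+ replicate 2, all higher, against 20.7% of all genes, with a median log2 fold change of 0.33 and 0.50 in the 2 comparisons. Mcm2, a helicase subunit, was measured at 121, 209 and 126 CPM in Rpl22+/+ replicates 1 to 3 and 194, 237 and 214 CPM in Rpl22-/- replicates 1 to 3. Only Rpl22+/+ replicate 2 reached the range of the Rpl22-/- libraries, and Rpl22+/+ replicates 1 and 3 lay far below it. The log2 fold change was 0.50 ± 0.24 with all libraries (edgeR adjusted p = 0.173) and 0.76 ± 0.14 without Rpl22+/+ replicate 2 (adjusted p = 0.00656, a fold of 1.69). With the GC and length correction, chosen after seeing the data, 1 of the 8 licensing genes was called higher, against 14.9% of all genes. That gene was Mcm2 (0.51 ± 0.16, edgeR adjusted p = 0.0467), and the median of the 8 genes was 0.24.

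Mcm6 and Mcm4 were the licensing genes whose groups did not overlap. Mcm6 was measured at 188, 259 and 186 CPM in Rpl22+/+ replicates 1 to 3 and 277, 302 and 270.1 CPM in Rpl22-/- replicates 1 to 3. All Rpl22-/- libraries lay above all Rpl22+/+ libraries, Rpl22+/+ replicate 2 included. The change was 0.42 ± 0.17 (edgeR adjusted p = 0.119) and 0.55 ± 0.12 without that library (adjusted p = 0.0117). Mcm4 was measured at 117, 133 and 117 CPM in Rpl22+/+ replicates 1 to 3 and 149.6, 150.1 and 163 CPM in Rpl22-/- replicates 1 to 3. Its change was 0.33 ± 0.13 (edgeR adjusted p = 0.0959) and 0.35 ± 0.10 without Rpl22+/+ replicate 2 (adjusted p = 0.0341).

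In Mcm5, Mcm3 and Cdt1, Rpl22+/+ replicate 2 lay at the top of the Rpl22-/- range or above it. Mcm5 stood at 200.1, 354 and 211 CPM in Rpl22+/+ replicates 1 to 3 and 301, 351 and 309 CPM in Rpl22-/- replicates 1 to 3. Mcm3 stood at 148, 256 and 155 CPM in Rpl22+/+ replicates 1 to 3 and 189, 233 and 214 CPM in Rpl22-/- replicates 1 to 3. Cdt1, the loading factor that geminin inhibits, stood at 58.5, 101 and 62.95 CPM in Rpl22+/+ replicates 1 to 3 and 84.9, 95.5 and 101 CPM in Rpl22-/- replicates 1 to 3. For each of these genes Rpl22+/+ replicates 1 and 3 were close together and below all 3 Rpl22-/- libraries. The log2 fold changes without Rpl22+/+ replicate 2 were 0.60 ± 0.13 for Mcm5, 0.44 ± 0.14 for Mcm3 and 0.58 ± 0.12 for Cdt1 (edgeR adjusted p = 0.0132, 0.0459 and 0.0114). With all libraries they were 0.33 for Mcm5, 0.19 for Mcm3 and 0.34 for Cdt1 and did not pass. Mcm7, another helicase subunit, had log2 fold changes of -0.07 with all 6 libraries and 0.18 without Rpl22+/+ replicate 2, neither of which passed. Cdc6, an ATPase that recruits Mcm2-7, had values of 0.22 with all 6 libraries and 0.35 without Rpl22+/+ replicate 2 and did not pass.

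Among the genes that activate the helicase, Gins2, a GINS subunit, was measured at 13.5, 21.2 and 14.03 CPM in Rpl22+/+ replicates 1 to 3 and 18.3, 21.9 and 18.6 CPM in Rpl22-/- replicates 1 to 3. Rpl22+/+ replicate 2 lay within the Rpl22-/- range and the other Rpl22+/+ libraries below it. Its change was 0.47 ± 0.14 without that library (edgeR adjusted p = 0.0418), against 0.27 ± 0.21 with it (adjusted p = 0.407). Cdc45, its partner in the active helicase, had log2 fold changes of 0.05 with all 6 libraries and 0.19 without Rpl22+/+ replicate 2, and neither passed.

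The polymerases and the clamp did not pass the edgeR test in either comparison. Pcna, the sliding clamp and the most abundant member by TPM (221 ± 5.24 in Rpl22+/+ and 281 ± 32.1 in Rpl22-/-, mean ± SD, n = 3 each), was at 210.3, 284 and 219 CPM in Rpl22+/+ replicates 1 to 3 and 234, 298 and 307 CPM in Rpl22-/- replicates 1 to 3. Rpl22+/+ replicate 2 exceeded Rpl22-/- replicate 1, so the groups overlapped, and the change was 0.23 ± 0.18 (edgeR adjusted p = 0.402). With limma on log2(TPM + 1) Pcna was called higher (adjusted p = 0.0456). The log2 fold changes with and without Rpl22+/+ replicate 2 were -0.04 and -0.01 for Pole, the catalytic subunit of the leading-strand polymerase. They were 0.59 and 0.24 for Prim1, the primase subunit, and 0.22 and -0.27 for Pola1, the catalytic subunit of polymerase alpha. Pola1 and Prim1 are among the 10 members that lay over 1 log2 unit below their group in Rpl22+/+ replicate 2, and the sign of the Pola1 change turned with that library.

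The 2 ribonucleotide reductase genes, whose products make deoxynucleotides, moved in opposite directions by value. Rrm2, the small subunit, was measured at 131, 150.2 and 126 CPM in Rpl22+/+ replicates 1 to 3 and 174, 164 and 176 CPM in Rpl22-/- replicates 1 to 3. All Rpl22-/- libraries lay above all Rpl22+/+ libraries. The log2 fold change was 0.34 ± 0.13 with all libraries (edgeR adjusted p = 0.103) and 0.37 ± 0.10 without Rpl22+/+ replicate 2 (adjusted p = 0.0246). Rrm1, the large subunit, had changes of -0.28 with all 6 libraries and -0.17 without Rpl22+/+ replicate 2 and passed in neither, although its groups did not overlap, with Rpl22-/- lower.

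The mitosis genes were spread around no change. With all 6 libraries, 0 of the 20 passed the edgeR test in either direction (against 13.7% of all genes higher and 13.8% lower). DESeq2 called 0 of them (against 14.9% and 16.6% of all genes), and limma on log2(TPM + 1) called 1 higher and 0 lower (against 19.3% and 12.8%). Of the 20, 7 had a log2 fold change above 0 and 13 below, and the median was -0.09. At an unadjusted p under 0.05 there was 1 gene. Without Rpl22+/+ replicate 2 the median was -0.15, with 2 genes higher (10%, against 20.7% of all genes) and 0 lower (against 19.3%). By limma on log2(TPM + 1) with all 6 libraries the split was reversed. There 13 of the 20 were above 0 and 7 below, with a median of 0.14 against 0.10 over all genes. These values too were measured beside the granule and erythroid differences given above. The summed TPM of the 20 genes was 1275, 961 and 1178 in Rpl22+/+ and 1587, 1141 and 1067 in Rpl22-/-, so the genotypes overlapped. Replication minus mitosis, the difference of the 2 class medians, was 0.34 log2 units with all libraries and 0.50 without Rpl22+/+ replicate 2. Leaving out Rpl22+/+ replicate 1 gave 0.16, and leaving out Rpl22-/- replicate 1 gave 0.56. By library, the same difference of centered medians was -0.28, 0.01 and -0.21 in Rpl22+/+ and -0.07, 0.19 and 0.37 in Rpl22-/-, with Rpl22+/+ replicate 2 above Rpl22-/- replicate 1.

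The classes differ in length, and the 3 longest members, Cenpf, Mki67 and Cenpe, are mitosis genes. Among members shorter than the median length of 2832 bases, the median log2 fold change was 0.30 in 8 replication genes and -0.01 in 11 mitosis genes with all libraries, and 0.35 and 0.14 without Rpl22+/+ replicate 2. The 9 longer mitosis genes had a median of -0.10 with all libraries and -0.46 without that library, when 8 of the 9 were below 0. The 8 longer replication genes had medians of 0.22 and 0.35 in the same 2 comparisons. In the short genes the gap between the classes was thus smaller without Rpl22+/+ replicate 2 (0.35 against 0.14) than in the classes as a whole (0.35 against -0.15).

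**Figure D4:**
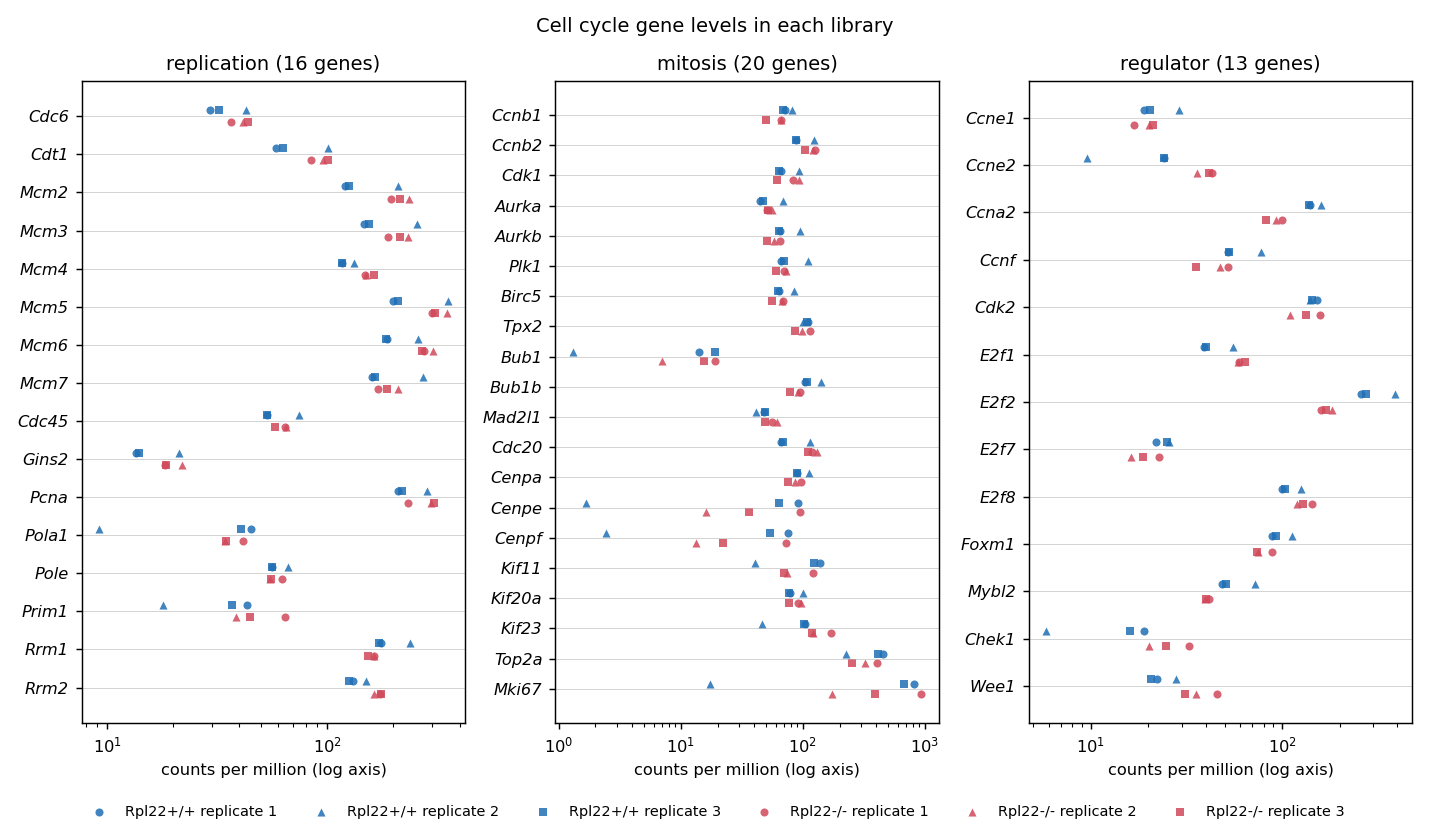
Level of each of the 49 genes in each library in CPM (horizontal log axis), in 3 panels by role, with Rpl22+/+ in blue and Rpl22-/- in red and a symbol for each replicate. In Cenpe, Cenpf and Mki67 the blue triangle, Rpl22+/+ replicate 2, lies at 1.67, 2.46 and 17.3 CPM, while in most replication genes it lies to the right of the other blue points.

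Of the mitotic cyclins and their kinase, Ccnb1 (cyclin B1) was measured at 70.7, 81.7 and 68.8 CPM in Rpl22+/+ replicates 1 to 3 and 65.8, 66.5 and 50.1 CPM in Rpl22-/- replicates 1 to 3. All Rpl22-/- libraries were below all Rpl22+/+ libraries, by a log2 fold change of -0.28 ± 0.16 that did not pass (edgeR adjusted p = 0.253). Ccnb2 (cyclin B2) stood at 87.5, 122 and 87.04 CPM in Rpl22+/+ replicates 1 to 3 and 126, 120.4 and 104 CPM in Rpl22-/- replicates 1 to 3, with Rpl22+/+ replicate 2 inside the Rpl22-/- range. It was called higher without Rpl22+/+ replicate 2 (0.37 ± 0.12, edgeR adjusted p = 0.0482) and had 0.24 ± 0.18 with it (adjusted p = 0.386). Cdk1, the kinase that both cyclins activate, was at 66.2, 93.3 and 64.2 CPM in Rpl22+/+ replicates 1 to 3 and 82.2, 92.7 and 60.9 CPM in Rpl22-/- replicates 1 to 3. The groups overlapped, and the change was 0.08 ± 0.22 (edgeR adjusted p = 0.839).

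Cdc20, the activator of the anaphase-promoting complex, had the largest higher change of the mitosis genes among those called. It was measured at 66.6, 114 and 69.3 CPM in Rpl22+/+ replicates 1 to 3 and 119, 131 and 111 CPM in Rpl22-/- replicates 1 to 3. Rpl22+/+ replicate 2 was again in the Rpl22-/- range, and the other Rpl22+/+ libraries lay well under it. The change was 0.78 ± 0.13 without Rpl22+/+ replicate 2 (edgeR adjusted p = 0.00407, a fold of 1.72) and 0.53 ± 0.23 with it (adjusted p = 0.144). In the same group, Bub1b (BubR1), a checkpoint protein, had changes of -0.43 with all 6 libraries and -0.33 without Rpl22+/+ replicate 2 and Mad2l1, another, had 0.26 and 0.14, and none passed. The groups of Bub1b did not overlap, with Rpl22-/- lower. Bub1b passed in 3 of 19 alternatives, among them with both libraries numbered 2 left out (-0.38 ± 0.11, edgeR adjusted p = 0.047). Bub1, a checkpoint kinase, had 0.26 with all 6 libraries and -0.34 without Rpl22+/+ replicate 2, on a sum of transcripts that reached 0.357 of the mean the authors deposited for the gene, while this ratio was 0.954 to 1.06 for the other 48 members.

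The remaining mitosis genes did not pass in either comparison. For the mitotic kinases and their partners, the log2 fold changes with and without Rpl22+/+ replicate 2 were -0.01 and 0.17 for Aurka and -0.35 and -0.19 for Aurkb, the Aurora kinases. They were -0.29 and -0.06 for Plk1, a kinase that drives mitotic entry, -0.12 and -0.02 for Birc5 (survivin), a subunit of the complex that holds Aurora B, and -0.10 and -0.19 for Tpx2, an activator of Aurora A. All 5 were below 0 with all libraries.

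At the kinetochore, Cenpa, the centromeric histone, had -0.19 and -0.12 in the 2 comparisons. Cenpe had -0.08 ± 1.18 and -0.72 ± 0.63, and Cenpf had -0.29 ± 1.09 and -0.93 ± 0.64, with standard errors that exceed 0.6 in each. Of the motors, Kif11, which separates the spindle poles, had -0.19 and -0.62. Kif20a and Kif23, which act in cytokinesis, had 0.06 and 0.14 and 0.70 and 0.36, and all Rpl22-/- libraries lay above all Rpl22+/+ libraries for Kif23.

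Top2a, the topoisomerase that untangles sister chromosomes, was measured at 450.2, 227 and 412 CPM in Rpl22+/+ replicates 1 to 3 and 402, 321 and 250.3 CPM in Rpl22-/- replicates 1 to 3. Rpl22+/+ replicate 2 was lowest and the other Rpl22+/+ libraries were highest, so that the change was -0.16 ± 0.30 with all libraries (edgeR adjusted p = 0.742) and -0.46 ± 0.20 without Rpl22+/+ replicate 2 (adjusted p = 0.108). For Mki67, whose values are given above, the change was -0.01 ± 1.16 (edgeR adjusted p = 0.997) and -0.65 ± 0.59 without that library (adjusted p = 0.426). With a standard error of 1.16, a 2-fold difference in Mki67 in either direction was not detectable with these libraries.

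Of the 13 regulators, 1 was called higher (7.69%, against 13.7% of all genes) and 2 lower (15.4%, against 13.8%) with the full set of libraries. Without Rpl22+/+ replicate 2, 3 were higher (23.1%, against 20.7%) and 3 lower (23.1%, against 19.3%). The granule and erythroid genes given above differed between the same libraries. The median log2 fold change of the regulators was -0.23, with 5 above 0 and 8 below, and the genotypes overlapped in their summed TPM (462, 410 and 454 in Rpl22+/+ and 480, 355 and 404 in Rpl22-/-). Ccna2 (cyclin A2, chr3:36619014-36626299 on GRCm39), which drives S phase with Cdk2 and mitotic entry with Cdk1, was measured at 139.8, 159 and 139 CPM in Rpl22+/+ replicates 1 to 3 and 100.3, 92.4 and 82.5 CPM in Rpl22-/- replicates 1 to 3. Every Rpl22-/- library lay below every Rpl22+/+ library, and Rpl22+/+ replicate 2 was close to its group. The change was -0.67 ± 0.14 (edgeR adjusted p = 0.0129, a fold of 1.59) and -0.65 ± 0.11 without Rpl22+/+ replicate 2 (adjusted p = 0.00547). The call was lost in 1 of 19 alternatives, without Rpl22-/- replicate 3 (adjusted p = 0.0651).

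E2f2 (chr4:135899705-135923368 on GRCm39), an E2F factor of the G1/S transition, was measured at 259, 389.6 and 276 CPM in Rpl22+/+ replicates 1 to 3 and 160.5, 183 and 169 CPM in Rpl22-/- replicates 1 to 3. The groups did not overlap, and Rpl22+/+ replicate 2 was the highest library. The change was -0.85 ± 0.19 (edgeR adjusted p = 0.0171, a fold of 1.81) and -0.69 ± 0.12 without that library (adjusted p = 0.00534). The call was lost with a length correction and without Rpl22-/- replicate 1 or 3 (adjusted p = 0.0656, 0.0709 and 0.0711). E2f1, its close relative, went the other way, at 39.1, 55.02 and 39.8 CPM in Rpl22+/+ replicates 1 to 3 and 59.6, 59.05 and 64.1 CPM in Rpl22-/- replicates 1 to 3. All Rpl22-/- libraries lay above all Rpl22+/+ libraries. Its change passed without Rpl22+/+ replicate 2 (0.58 ± 0.09, edgeR adjusted p = 0.00431) and not with it (0.45 ± 0.17, adjusted p = 0.095).

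Wee1 (chr7:109721253-109742493 on GRCm39), the kinase that holds Cdk1 inactive, was measured at 22.05, 27.7 and 20.6 CPM in Rpl22+/+ replicates 1 to 3 and 45.5, 35.3 and 31.1 CPM in Rpl22-/- replicates 1 to 3. Every Rpl22-/- library was above every Rpl22+/+ library, with a spread from 31.1 to 45.5 CPM among the former. The change was 0.67 ± 0.20 (edgeR adjusted p = 0.0447, a fold of 1.59) and 0.75 ± 0.17 without Rpl22+/+ replicate 2 (adjusted p = 0.0129). This call was lost in 6 of 19 alternatives, those with a length correction or without any 1 of the 5 libraries other than Rpl22+/+ replicate 2, with adjusted p from 0.0611 to 0.161.

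Chek1, the kinase that signals stalled replication, had the second largest change of all members with the full set, at 18.9, 5.82 and 16.1 CPM in Rpl22+/+ replicates 1 to 3 and 32.7, 20.2 and 24.8 CPM in Rpl22-/- replicates 1 to 3. The groups did not overlap, but Rpl22+/+ replicate 2 was far below its group and the test was not passed (0.93 ± 0.43, edgeR adjusted p = 0.161, and 0.51 ± 0.20 without that library, adjusted p = 0.0811). With the GC and length correction, chosen after seeing the data, it passed (0.83 ± 0.13, edgeR adjusted p = 0.00322). Ccne2 (cyclin E2, chr4:11191351-11204779 on GRCm39), which starts S phase with Cdk2, had the largest. It was measured at 24.2, 9.55 and 24.02 CPM in Rpl22+/+ replicates 1 to 3 and 42.8, 35.99 and 41.4 CPM in Rpl22-/- replicates 1 to 3. The groups stayed apart also without Rpl22+/+ replicate 2, the lowest library. The change was 1.06 ± 0.35 (edgeR adjusted p = 0.0643) and 0.68 ± 0.10 without it, which passed (adjusted p = 0.00284). With the GC and length correction Ccne2 did not pass (0.67 ± 0.41, edgeR adjusted p = 0.263). Ccne1, the other cyclin E gene, had -0.23 with all 6 libraries and -0.07 without Rpl22+/+ replicate 2, neither of which passed.

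Mybl2 (B-Myb), which acts with the MuvB core on late cell cycle genes, was measured at 48.3, 72.4 and 50.6 CPM in Rpl22+/+ replicates 1 to 3 and 41.6, 39.7 and 39.9 CPM in Rpl22-/- replicates 1 to 3. The groups did not overlap, with Rpl22-/- lower, and the change was -0.50 ± 0.18 (edgeR adjusted p = 0.0871) and -0.34 ± 0.09 without Rpl22+/+ replicate 2, which passed (adjusted p = 0.0238). Mybl2 passed in 8 of 19 alternatives, among them DESeq2, RLE factors and the GC correction with all 6 libraries. Foxm1, the other activator of late genes, had log2 fold changes of -0.31 with all 6 libraries and -0.24 without Rpl22+/+ replicate 2 and passed in neither. The changes in the 2 comparisons were -0.33 and -0.34 for E2f7 and 0.25 and 0.31 for E2f8, the atypical repressor E2Fs, without a pass. They were -0.13 and -0.20 for Cdk2, the S-phase kinase, and -0.43 and -0.27 for Ccnf (cyclin F), a substrate receptor of a ubiquitin ligase, again without a pass.

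Of the members, 6 lie on chromosomes 4 and 9, where genes as a whole were higher in Rpl22-/-. Genes averaging 50 counts or more had a median change of 0.43 log2 units if they lay on chromosome 4 (734 genes), as Rpl22 itself does, and of 0.34 on chromosome 9 (659 genes), against -0.08 to 0.08 on each of the other chromosomes with over 20 such genes. Cdc20, Ccne2 and E2f2 lie on chromosome 4, and Ccnb2, Kif23 and Chek1 lie on chromosome 9. Of these 6, 5 had a change above 0 and E2f2, one of the 2 genes called lower with all libraries, had a change below 0. Among the pathway genes named next, Orc1 lies on chromosome 4, and Tipin and Zwilch lie on chromosome 9. The part of the chromosomes in these values was not tested.

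Wider lists of pathway genes, none of them members, were written from general knowledge. Of 42 further replication genes, 5 were higher (11.9%, against 13.7% of all genes) and 0 lower (against 13.8%) with all libraries, with a median log2 fold change of 0.22. Without Rpl22+/+ replicate 2, 15 were higher (35.7%, against 20.7%) and 2 lower (4.76%, against 19.3%). Tipin, which protects stalled forks, was at 39.4, 34.03 and 40.2 CPM against 74.4, 77.6 and 72.5 CPM in the 3 Rpl22+/+ and 3 Rpl22-/- libraries (0.98 ± 0.13, edgeR adjusted p = 0.00209). Orc1, a subunit of the origin recognition complex, was at 5.30, 5.77 and 5.48 CPM against 10.2, 9.68 and 10.9 CPM (0.89 ± 0.14, edgeR adjusted p = 0.0053). Dut, which keeps uracil out of DNA, was at 45.4, 65.2 and 43.96 CPM against 90.8, 102 and 92.5 CPM (0.88 ± 0.19, edgeR adjusted p = 0.014). In all 3 the groups did not overlap, and the calls remained without Rpl22+/+ replicate 2 (adjusted p = 0.00123 for Tipin, 0.00318 for Orc1 and 0.00108 for Dut).

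Of 46 further mitosis genes, 2 were higher (4.35%, against 13.7% of all genes) and 3 lower (6.52%, against 13.8%) with all libraries, with a median of -0.04. Without Rpl22+/+ replicate 2, 3 were higher (6.52%, against 20.7%) and 9 lower (19.6%, against 19.3%). Cks2, a small partner of cyclin-dependent kinases, was at 66.2, 69.9 and 68.7 CPM against 117, 142 and 165 CPM (1.05 ± 0.16, edgeR adjusted p = 0.00405). Zwilch, which acts at the kinetochore, changed by 1.07 ± 0.31 (edgeR adjusted p = 0.0411). The 3 lower genes were Ncaph, a condensin subunit (-0.67 ± 0.15, edgeR adjusted p = 0.0184), Racgap1, which acts in cytokinesis (-0.67 ± 0.17, adjusted p = 0.0271), and Nek2, a centrosome kinase (-0.57 ± 0.17, adjusted p = 0.0479).

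Of 24 further regulators tested, 1 was higher (4.17%, against 13.7% of all genes) and 3 lower (12.5%, against 13.8%) with all libraries. The higher gene was Cdkn1c, which encodes the inhibitor p57, at 2.39, 2.84 and 1.91 CPM against 28.8, 32.2 and 30.9 CPM. No member came near this difference, a log2 fold change of 3.69 ± 0.20 (edgeR adjusted p = 8.36e-05). The lower genes were Cdkn1b, which encodes the related inhibitor p27 (-0.72 ± 0.15, edgeR adjusted p = 0.014), Cdc25b, a phosphatase that activates Cdk1 (-1.005 ± 0.21, adjusted p = 0.0142), and E2f5, a repressor E2F (-1.06 ± 0.24, adjusted p = 0.0186). The inhibitors p57 and p27 thus changed in opposite directions.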

How the data were processed

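Stranded libraries of poly(A) RNA from sorted CD11b+Gr1+ splenocytes, 3 per genotype, were grouped by sample title. The submitters' processing notes name Trimmomatic, Salmon and the GRCm39 build, and versions are not given in the sources used here. For each library the authors deposited estimated counts per transcript and TPM, which are scaled for length and sum to the same total. In a further deposited table the authors give their DESeq2 comparison. Its gene positions (GRCm39) were used, and so was its base mean, a signal that the authors made by dividing counts by size factors and averaging all libraries. Its fold changes, standard errors, test scores and p-values were not used.

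Estimated counts and TPM were summed to genes with the transcript identifiers of GENCODE vM21 (136036 of 276623 transcripts, 98.0% to 98.1% of reads) and counts were rounded. Genes passing filterByExpr were compared between genotypes, with no other term, by the TMM scaling and quasi-likelihood test of edgeR 4.0.16 (R 4.3.3), after the procedure was tested on simulated data. Standard errors are those implied by the F statistic. Length and GC content are averages over a gene's transcripts, weighted by reads. Alternatives were RLE factors, no composition factor, 2 filters, DESeq2 1.42.0, limma 3.58.1 on log2(TPM + 1) or log2(TPM + 0.1), corrections for GC content or length, the replicate number as a block, and each library left out. The GC and length correction together and the omission of both libraries numbered 2 were chosen after seeing the data. For figures matplotlib 3.10.9 was used.

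All 49 members are named with a log2 fold change. Values by library are given for those that passed an adjusted p of 0.05 with or without Rpl22+/+ replicate 2, for Mki67, Top2a, Pcna, Mcm2, Cdk1 and Ccnb1, and for the 3 largest changes. They are also given for Cenpe and Cenpf, which were singled out after their values were seen. From each pathway list the 3 genes with the smallest p in each direction among those that passed are named. Among the members with a window, promoters are those of the 3 replication and 3 mitosis genes with the smallest p that hold the class motif. The members and lists were chosen with earlier results of these data known. No reads carried molecular identifiers, and no interval for counting error is given. One pathway gene, Lin54, was not analysed here.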

Additional observations from a re-analysis of the deposited data

Results flagged for a closer look

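Bub1 and the transcripts without a gene are given here because they concern reads that no comparison used. In the library with the highest share, 2.04% of the estimated reads were assigned to transcripts that matched no gene of the annotation used. The gene sum of Bub1 was 0.357 of the mean deposited by the authors for that gene, while the other 48 members lay between 0.954 and 1.06, and its fold change rests on the matched transcripts. Groups of 3 libraries are too small for a test of outlying libraries.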

How the results depend on the processing

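With all 6 libraries 1 member was called higher and 2 lower. In the following, the share of all genes called in the same direction stands in parentheses. The count higher was 2 with DESeq2 (14.9%), 4 with the GC correction (14.8%) and with the GC and length correction (14.9%), 7 with the replicate block (17.7%), 8 with no composition factor (21.3%), 9 with the replicate block and GC correction (19.5%), 11 with limma on log2(TPM + 1) (19.3%) and on log2(TPM + 0.1) (19.7%) and 13 with both libraries numbered 2 left out (20.6%). The count lower was 1 with the length correction (12.8%), 4 with a mean of at least 50 counts (18.3%) and with both libraries numbered 2 left out (20.9%), and 5 with the replicate block and GC correction (22.7%). It was 3 in other settings, among them DESeq2 (16.6%) and the GC and length correction (17.6%). With each library left out in turn, the count higher ranged from 0 to 13, with 13 when Rpl22+/+ replicate 2 was left out (20.7%) and 0 when any other library was (6.76% to 9.55%), and the count lower ranged from 0 (without Rpl22-/- replicate 3, 8.25%) to 3 (without Rpl22+/+ replicate 2, 19.3%). The median of all genes moved from 0.07 to 0.19 with no composition factor. Replication minus mitosis stayed above 0 in each of the 19 alternatives and ranged from 0.16 to 0.56 as libraries were left out, with 0.56 without Rpl22-/- replicate 1. The mitosis median was 0.14 with limma on log2(TPM + 1) and on log2(TPM + 0.1). The cause of these movements was not tested.

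Same-numbered libraries deviated from their groups together, with correlations of 0.48, 0.63 and 0.10 (0.0975 before rounding) over all tested genes and 0.57, 0.71 and 0.13 over those averaging 50 counts or more. The third lies at the limit of 0.1, and no label says what a number shares, so the numbers were not taken as pairs. Each Rpl22-/- library correlated best with its own number, whereas Rpl22+/+ replicate 3 correlated more with Rpl22-/- replicate 1 (0.36). With the replicate block, Mcm2, Prim1, Cdc20, Kif23, Ccne2 and Chek1 passed beside the 3 members called without it (log2 fold changes of 0.54, 0.65, 0.57, 0.77, 1.17 and 1.06, edgeR adjusted p from 0.0177 to 0.0494).

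None of the members whose sign changed had passed with all 6 libraries. With the GC and length correction these log2 fold changes were Pole 0.051, Cdk1 -0.0048, Cenpe 0.15 and Mki67 0.23. With the GC correction these log2 fold changes were Mad2l1 -0.016, Cenpe 0.0061 and Mki67 0.024. With both libraries numbered 2 left out these log2 fold changes were Mcm7 0.074, Pola1 -0.24, Aurka 0.11 and Bub1 -0.0296. With the length correction these log2 fold changes were Cdc45 -0.065, Cdk1 -0.048, Cenpe 0.087, Kif20a -0.0204 and Mki67 0.22. With limma on log2(TPM + 0.1) these log2 fold changes were Mcm7 0.038, Pole 0.012, Aurka 0.14, Cenpe 0.85, Cenpf 0.55, Kif11 0.062, Top2a 0.13 and Mki67 0.97. With limma on log2(TPM + 1) these log2 fold changes were Mcm7 0.038, Pole 0.011, Aurka 0.14, Cenpe 0.46, Cenpf 0.21, Kif11 0.047, Top2a 0.13 and Mki67 0.81. With no composition factor these log2 fold changes were Mcm7 0.085, Pole 0.092, Aurka 0.14, Birc5 0.018, Tpx2 0.025, Mki67 0.056 and Cdk2 0.00054. With no low-count filter the log2 fold change of Aurka was 0.024. With the replicate block these log2 fold changes were Aurka 0.018, Cenpe 0.68, Cenpf 0.27 and Mki67 0.79. With the replicate block and GC correction these log2 fold changes were Cenpe 0.56, Cenpf 0.16 and Mki67 0.76. With each library left out in turn, the log2 fold changes of the members that changed sign ranged from -0.13 to 0.17 for Aurka, -0.34 to 0.83 for Bub1, -0.036 to 0.19 for Cdc45, -0.065 to 0.24 for Cdk1, -0.98 to 0.59 for Cenpe, -1.31 to 0.35 for Cenpf, -0.62 to 0.11 for Kif11, -0.025 to 0.15 for Kif20a, -0.21 to 0.18 for Mcm7, -0.84 to 0.53 for Mki67, -0.27 to 0.56 for Pola1, -0.46 to 0.016 for Top2a and -0.20 to 0.0040 for Tpx2.

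Mki67, Cenpe and Cenpf were far lower in Rpl22+/+ replicate 2 than in the other libraries, and their standard errors were 1.09 to 1.18 log2 units with all libraries and 0.59 to 0.64 without it. Depth was lowest in Rpl22-/- replicate 1, with 35828500 reads.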
